A study of Mus musculus with 16 samples.

Results

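Mir17hg, Rn7sk and Redrum are 3 noncoding RNA genes of the mouse, described here across all 16 libraries of a bulk RNA sequencing series. They were found as the rows of the deposited normalized count table whose Ensembl identifiers carry those symbols, 3 of the 6288 genes in the table, and all 3 are among the 6110 that passed the filter on low values. They were chosen by their measured levels in these same libraries, with results already known. Which difference chose them is not recorded, so their levels and differences are given as descriptions without a test. The libraries came from CD45-positive bone marrow cells. Magnetic kits had enriched them for LSK cells (lacking lineage markers, with Kit and Sca1), where haematopoietic stem cells and multipotent progenitors reside. The study asked how the oxygen level at collection and the loss of Tet2, an enzyme that oxidises methylcytosine, changed gene expression in these cells.

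There were 4 groups of 4 libraries. Tet2-deficient physioxia and WT physioxia cells were harvested and kept at 3% oxygen until RNA extraction. Tet2-deficient air and WT air cells were harvested at 3% oxygen as well and then stood for 6 hours in ambient air, at about 21% oxygen. Tet2-deficient mice were Tet2-/- and WT mice were C57Bl/6J. Donors of all groups were 3 to 4 months old and of both sexes. The deposited columns call the 3% oxygen condition hypoxia. The labels speak of matched biological replicates and do not say whether marrow of several animals was pooled.

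Library depth in the table was 7.77 to 15.7 M reads, of which 12.3% to 20.3% fell on its top 10 genes. Tet2 was detected in every Tet2-deficient library, at 482 ± 35.9 normalized counts in Tet2-deficient physioxia against 731 ± 97.4 in WT physioxia, and at 554 ± 54.1 in Tet2-deficient air against 855 ± 157 in WT air (SD, n = 4, here and for every mean that follows). Reads from exons that were not deleted also enter this count, which therefore checks the genotype labels only in part. Of 12 markers of stem and progenitor cells, the 6 in the table, among them Kit, Procr and Tek, were detected in each group, and the others were not analysed here. In bulk samples, fewer cells of a type and less RNA per cell cannot be told apart. In 98.2% of the 6110 tested genes the smallest unadjusted DESeq2 p of the 4 pairwise comparisons was under 0.05, so every share of called genes below describes a table of genes that already differed.

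Mir17hg is the host transcript of the miR-17-92 cluster. Its primary transcript is cut by Drosha and Dicer into miRNAs, which pair through their seed with sites in the 3′ untranslated regions of messenger RNAs and lower the output of those messages. The cluster is transcribed under MYC and E2F factors, promotes proliferation and survival of B cell and myeloid progenitors in mice, and is also called oncomir-1. Rn7sk encodes 7SK, an abundant nuclear RNA made by RNA polymerase III. With the capping enzyme MEPCE, the protein LARP7 and HEXIM proteins, 7SK holds the kinase complex P-TEFb (CDK9 with cyclin T) in an inactive store, from which it is released to let paused RNA polymerase II elongate. Redrum is a long intergenic noncoding RNA of erythroid cells, described in mouse erythroblasts, where its knockdown impaired red cell maturation.

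Mir17hg (ENSMUSG00000089726) is annotated on the plus strand of GRCm38 chromosome 14, from 115042879 to 115046727, with an exon of 79 bases and an exon of 3457 bases. All 6 miRNA genes of the cluster, with 11 mature miRNAs in RefSeq, lie in its second exon, between 806 and 1598 bases from the start of the gene. Their seeds are what set the messages the cluster can act on, so the 6 main products are shown, from RefSeq on GRCm38.p6, 5′ to 3′, with the seed (bases 2 to 8) in capitals.
miR-17-5p: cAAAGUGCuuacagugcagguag
miR-20a-5p: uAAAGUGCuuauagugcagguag
miR-18a-5p: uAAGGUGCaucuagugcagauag
miR-19a-3p: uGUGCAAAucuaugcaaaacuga
miR-19b-3p: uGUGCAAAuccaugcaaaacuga
miR-92a-3p: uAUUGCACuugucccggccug
The 6 products fall into 4 seed groups: miR-17-5p with miR-20a-5p, miR-18a-5p alone, miR-19a-3p with miR-19b-3p, and miR-92a-3p alone.

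**Figure D1:**
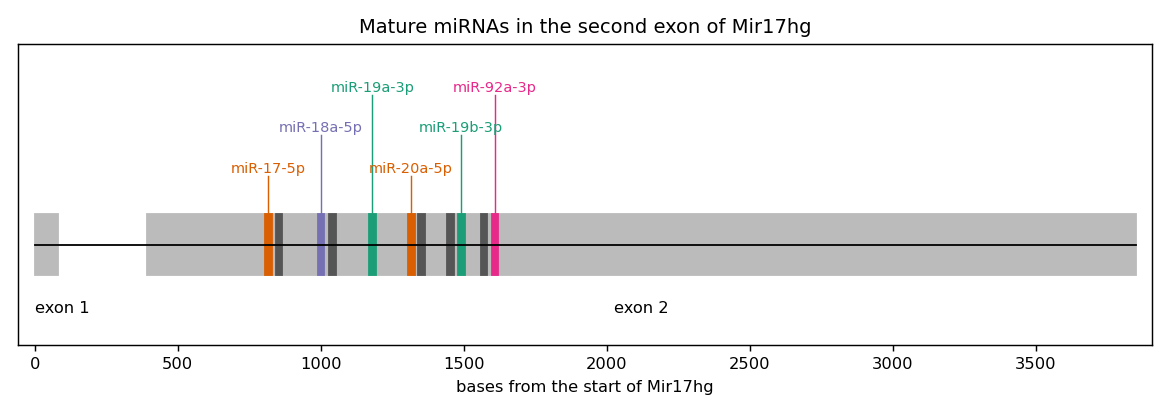
Map of Mir17hg drawn to scale, with the distance from its start in bases on the horizontal axis, exons in grey and the 11 mature miRNAs as coloured or dark boxes. The 6 named products are coloured by their 4 seed groups, and all 11 boxes sit in the first part of the second exon, from 806 bases onward.

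Rn7sk (ENSMUSG00000065037) is a single exon of 331 bases on the minus strand of chromosome 9, from 78175303 to 78175633. Its first 100 bases (chr9:78175534-78175633, minus strand, GRCm38) are shown because they hold the stem that HEXIM proteins bind, and all 3 GATC motifs of the gene, in capitals, lie in them.
Rn7sk, first 100 bases: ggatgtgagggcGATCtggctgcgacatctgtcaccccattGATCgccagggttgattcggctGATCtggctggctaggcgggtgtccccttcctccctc

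Redrum (ENSMUSG00000096982) is a lincRNA of 3 exons of 266, 107 and 1855 bases on the plus strand of chromosome 18, from 54422295 to 54453294.

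Mir17hg was a low transcript in every library, at 17 to 141 reads. In physioxia its normalized counts were 30.7, 45.4, 57.1 and 54.2 in Tet2-deficient replicates 1 to 4, and 20.1, 23.1, 27.2 and 31.6 in WT replicates 1 to 4. In air they were 63.0, 122, 74.1 and 42.3 in Tet2-deficient replicates 1 to 4, and 112, 68.4, 117 and 94.7 in WT replicates 1 to 4. WT physioxia libraries were the lowest and WT air libraries the highest by mean, with both Tet2-deficient groups between them. The means were 46.8 ± 11.8 in Tet2-deficient physioxia, 25.5 ± 5.02 in WT physioxia, 75.5 ± 34.0 in Tet2-deficient air and 97.8 ± 21.7 in WT air.

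The oxygen difference of Mir17hg was wider in WT than in Tet2-deficient cells. The log2 difference of physioxia minus air was −1.89 ± 0.31 in WT (± SE of a fit over all libraries, as for all log2 differences below), and every WT physioxia library lay below every WT air library. In Tet2-deficient cells it was −0.61 ± 0.31, and the groups overlapped. The genotype difference, Tet2-deficient minus WT, was 0.83 ± 0.31 in physioxia and −0.44 ± 0.31 in air, with overlapping groups in both. In physioxia the overlap rested on Tet2-deficient replicate 1 alone, which at 30.7 lay under WT replicate 4 at 31.6. The air value rested on single libraries: it came to −0.71 without Tet2-deficient air replicate 2 and −0.21 without replicate 4. The oxygen difference in Tet2-deficient cells came to −0.35 without that same air replicate 2. The difference between both oxygen differences was 1.28 ± 0.43. These comparisons share libraries, the WT air group entering 2 of the 4, and so they are not independent of each other.

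In order of their means, WT air and Tet2-deficient air overlapped, as did Tet2-deficient air and Tet2-deficient physioxia, and Tet2-deficient physioxia and WT physioxia. Per kilobase of exon, which allows levels of different genes to be set side by side, Mir17hg stood at 13.2 ± 3.35 normalized counts in Tet2-deficient physioxia, 7.21 ± 1.42 in WT physioxia, 21.3 ± 9.61 in Tet2-deficient air and 27.7 ± 6.15 in WT air. Among 407 long noncoding RNA genes tested, its level per kilobase ranked 244th, 298th, 181st and 177th in those groups.

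Rn7sk varied widely between libraries of the same group, with 23 to 196 reads in Tet2-deficient physioxia, 57 to 335 in WT physioxia, 80 to 409 in Tet2-deficient air and 363 to 847 in WT air. In physioxia its normalized counts were 91.0, 126, 31.3 and 169 in Tet2-deficient replicates 1 to 4, and 139, 52.6, 326 and 91.3 in WT replicates 1 to 4. In air they were 216, 71.2, 80.1 and 346 in Tet2-deficient replicates 1 to 4, and 814, 365, 577 and 660.1 in WT replicates 1 to 4. WT air libraries were thus the 4 highest of all 16, and the other 3 groups ran through each other. The means were 104 ± 58.1 in Tet2-deficient physioxia, 152 ± 121 in WT physioxia, 178 ± 130.05 in Tet2-deficient air and 604 ± 187 in WT air.

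Rn7sk was lower than in WT air in both comparisons that use that group. The log2 difference of physioxia minus air in WT was −2.24 ± 0.60, and that of Tet2-deficient minus WT in air was −2.004 ± 0.604. Neither pair of groups overlapped, although the gaps were narrow: the highest WT physioxia library stood at 326 and the highest Tet2-deficient air library at 346, against 365 in the lowest WT air library. Both differences share the WT air libraries. The differences without that group were −0.70 ± 0.60 for physioxia minus air in Tet2-deficient cells and −0.46 ± 0.60 for Tet2-deficient minus WT in physioxia, with overlapping groups. Without Tet2-deficient physioxia replicate 3, the lowest of all libraries, the last of these came to 0.03, and without WT physioxia replicate 3 to 0.02, while it was −0.85 without WT physioxia replicate 2. The oxygen difference in Tet2-deficient cells came to −0.21 without that Tet2-deficient physioxia replicate 3 and −0.28 without Tet2-deficient air replicate 4, and ranged down to −1.03 without other single libraries. The difference between both oxygen differences was 1.55 ± 0.85.

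Redrum was high in Tet2-deficient and low in WT cells in either oxygen condition, from 25 to 1206 reads per library. In physioxia its normalized counts were 312, 1236, 523 and 329 in Tet2-deficient replicates 1 to 4, and 57.8, 158, 31.1 and 51.2 in WT replicates 1 to 4. In air they were 404, 389.9, 1207 and 582 in Tet2-deficient replicates 1 to 4, and 30.8, 102, 27.5 and 46.9 in WT replicates 1 to 4. All 8 Tet2-deficient libraries lay above all 8 WT libraries, with 312 as the lowest Tet2-deficient and 158 as the highest WT value. The means were 600.05 ± 435 in Tet2-deficient physioxia and 74.5 ± 56.6 in WT physioxia, an 8.06-fold ratio, and 646 ± 384 in Tet2-deficient air and 51.7 ± 34.3 in WT air, a 12.5-fold ratio. Tet2-deficient minus WT gave a log2 difference of 3.02 ± 0.55 in physioxia and 3.65 ± 0.55 in air.

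The oxygen differences of Redrum were smaller than the spread between its libraries. The log2 difference of physioxia minus air was −0.18 ± 0.55 in Tet2-deficient cells and 0.45 ± 0.55 in WT cells, with overlapping groups in both, and the difference between them was −0.64 ± 0.77. Without Tet2-deficient air replicate 3, the Tet2-deficient value came to 0.17, and it was also above 0 without physioxia replicate 1 (0.05) or 4 (0.02), while it was −0.61 without physioxia replicate 2. In each same-numbered WT pair the physioxia library was the higher. With WT pairs as blocks, a fit added after seeing the data, the WT difference was 0.45 ± 0.43. Leaving out 1 library also breaks its pair. The WT value came to 0.01 without WT physioxia replicate 2, and to 0.28 and 0.22 without WT air replicates 1 and 3. It came to 0.84 without WT air replicate 2 and 0.78 without WT physioxia replicate 3. The difference between both ranged from −1.06 to −0.19 with 1 library left out. Within each genotype 1 library per oxygen condition stood well above the rest: replicate 2 in Tet2-deficient physioxia, WT physioxia and WT air, and replicate 3 in Tet2-deficient air. Per kilobase of exon, Redrum stood at 269 ± 195 normalized counts in Tet2-deficient physioxia, 33.4 ± 25.4 in WT physioxia, 290 ± 172 in Tet2-deficient air and 23.2 ± 15.4 in WT air. Among the 407 long noncoding RNA genes it ranked 17th in both Tet2-deficient groups, 156th in WT physioxia and 194th in WT air.

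**Figure D2:**
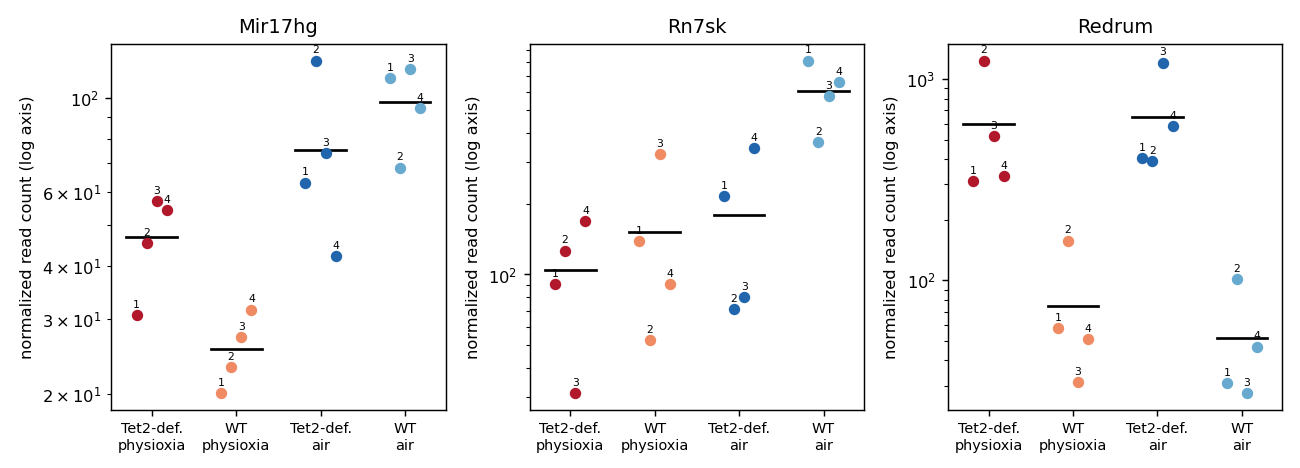
Normalized read counts of Mir17hg, Rn7sk and Redrum in each of the 16 libraries, on log axes, with 1 point per library numbered by replicate and a black line at each group's mean (n = 4). WT physioxia libraries are lowest by mean for Mir17hg, at 20.1 to 31.6, WT air libraries are highest for Rn7sk at 365 to 814, and the 8 Tet2-deficient libraries are highest for Redrum at 312 to 1236.

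Set against the whole table, groups that did not overlap were common between genotypes and rare between oxygen conditions. Between the genotypes in physioxia 1 of the 3 genes (Redrum) had groups that did not overlap, where 57.6% of the 6110 tested genes did. In air 2 of the 3 (Rn7sk and Redrum) did, where 70.6% of tested genes did. For oxygen, none of the 3 did in Tet2-deficient cells, where 3.75% of tested genes did. In WT 2 of the 3 (Mir17hg and Rn7sk) did, both lower in physioxia, where 11% of tested genes did in either direction and 3.16% were lower. Nothing is read from these counts for the 3 genes, since they were picked with such values known.

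**Figure D3:**
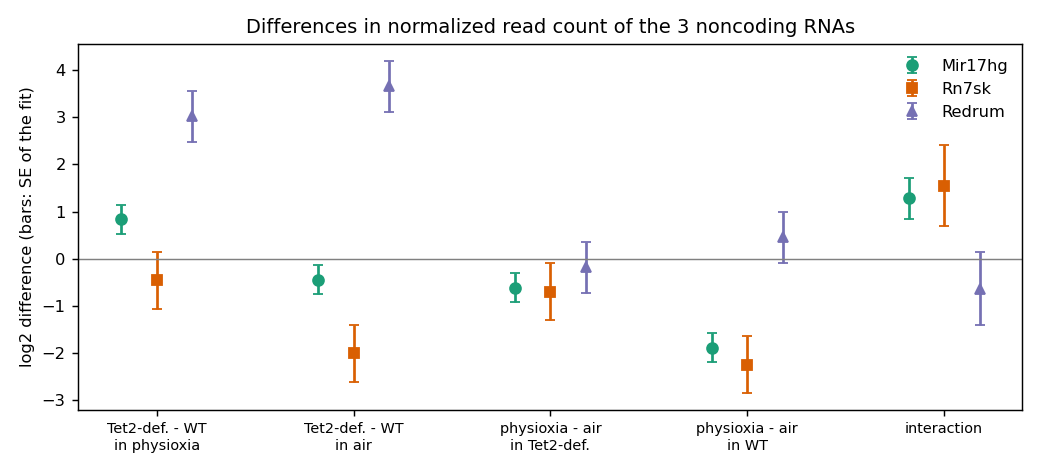
Log2 differences of Mir17hg, Rn7sk and Redrum in the 4 pairwise comparisons and in the interaction (the oxygen difference in Tet2-deficient cells minus that in WT), with bars for the SE of the fit. Redrum lies at 3.02 and 3.65 between the genotypes and at −0.18 and 0.45 between oxygen conditions, while Mir17hg at −1.89 and Rn7sk at −2.24 lie lowest for physioxia minus air in WT.

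The genes around these 3 in their pathways were tested over the whole table. Adjusted p-values below are those of limma over all 6110 tested genes. With an adjusted p under 0.05, 69.4% of tested genes were called between the genotypes in physioxia (35.9% higher and 33.6% lower in Tet2-deficient cells) and 79.5% in air (42.1% higher and 37.4% lower). For oxygen 0% were called in Tet2-deficient cells and 5.76% in WT (4.91% higher and 0.851% lower in physioxia). In Tet2-deficient cells edgeR also called 0 genes and DESeq2 9, while 280 had an unadjusted limma p under 0.05. These shares depend on single libraries. The 352 genes called for oxygen in WT became 126 to 228 without WT air replicate 2 or 4 or WT physioxia replicate 1, 2 or 3, and 554 without WT physioxia replicate 4. Without Tet2-deficient air replicates 3 and 4, the genes called for oxygen in Tet2-deficient cells became 152 (146 higher), and the 4858 called between the genotypes in air became 2740.

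Myc, the transcription factor that drives the cluster, was higher in Tet2-deficient cells, at 13934 ± 386 normalized counts in Tet2-deficient physioxia against 7801 ± 1409 in WT physioxia (0.86 ± 0.11, adjusted p = 2.1e-05). In air it stood at 15129 ± 401 normalized counts with Tet2 deficiency and 8809 ± 641 in WT (0.78 ± 0.11, adjusted p = 4.64e-05). Mycn, its relative, was higher too (1.02 ± 0.19 in physioxia, adjusted p = 0.000492, and 1.10 ± 0.19 in air, adjusted p = 0.000278). Where Mir17hg itself differed by −1.89, for physioxia minus air in WT, Myc differed by −0.19 ± 0.11 (adjusted p = 0.37) and Mycn by −0.17 ± 0.19 (adjusted p = 0.685). Of the other listed factors E2f1, E2f2, E2f3 and Stat3 were not analysed here.

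Among 7 tested genes of miRNA processing, 5 rose and 1 fell in Tet2-deficient physioxia, where 35.9% and 33.6% of all tested genes did. In Tet2-deficient air 2 rose and 1 fell, against 42.1% and 37.4% of all tested genes. Dgcr8, which pairs with Drosha in the nucleus, rose in both (0.48 ± 0.14 in physioxia, adjusted p = 0.00876, and 0.36 ± 0.14 in air, adjusted p = 0.032). Tarbp2, a Dicer partner, rose in both as well (0.30 ± 0.11 and 0.37 ± 0.11). Dgcr8 and Tarbp2 were named after their values were seen. Ago3, an Argonaute protein, fell by 0.67 ± 0.17 on the log2 scale in each condition. Ago1 and the silencing scaffolds Tnrc6b and Tnrc6c rose in physioxia (0.89 ± 0.24, 1.19 ± 0.30 and 1.11 ± 0.24). None of the 7 was called between oxygen conditions in either genotype.

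Of 29 listed targets of the miR-17-92 miRNAs 13 were tested, and most that differed were lower in Tet2-deficient cells. In physioxia 1 rose and 7 fell (median −0.50, against 0.06 over all tested genes, of which 35.9% rose and 33.6% fell). In air 2 rose and 7 fell (median −0.77, against 0.24 over all tested genes, of which 42.1% rose and 37.4% fell). Bcl2l11, which encodes the pro-apoptotic protein BIM, stood at 515 ± 61.9 in Tet2-deficient physioxia against 897 ± 174 in WT physioxia (−0.79 ± 0.16, adjusted p = 0.000969). In air it stood at 442 ± 98.3 with Tet2 deficiency and 846 ± 104 in WT (−0.95 ± 0.16, adjusted p = 0.000223). Hbp1, a repressor of cell cycle genes, differed by −1.25 ± 0.16 and −1.30 ± 0.16 (adjusted p = 1.61e-05 and adjusted p = 1.12e-05).

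Tgfbr2, a TGF-beta receptor named after its values were seen, and Hif1a, the oxygen-regulated transcription factor, fell in both conditions as well. Tgfbr2 differed by −0.79 ± 0.18 in physioxia and −1.05 ± 0.18 in air, and Hif1a by −0.81 ± 0.16 and −0.97 ± 0.16. Rbl2, a pocket protein of the retinoblastoma family, rose (0.79 ± 0.13 in physioxia, adjusted p = 0.00016, and 0.40 ± 0.13 in air, adjusted p = 0.0133). Between physioxia and air in WT 1 of the 13 was called: Cdkn1c, a cyclin-dependent kinase inhibitor named here after its values were seen, which rose at very low levels (2.79 ± 0.62, adjusted p = 0.0169). It stood at 37.1 ± 35.8 normalized counts in WT physioxia against 4.18 ± 4.00 in WT air, and it was not called without WT air replicate 2 or 4 or WT physioxia replicate 2.

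Seed matches give a wider view of messages the cluster could act on. For each gene 1 annotated 3′ untranslated region was searched, that of the transcript with the longest coding sequence, and other such regions were not. Its sense strand was searched for the complement of each seed: GCACTTT for miR-17 and miR-20a, GCACCTT for miR-18a, TTTGCAC for miR-19a and miR-19b, and GTGCAAT for miR-92a. The motif TTTGCAC can share letters with GCACTTT or GCACCTT in a message. Among 21015 annotated genes with such a region, 10.9%, 7.07%, 10.4% and 6.01% held a match in that order, and among 5326 tested genes 14.5%, 8.41%, 13.1% and 7.40% did. Bcl2l11 held 2 matches to the miR-17 seed, 1 to the miR-19 seed and 2 to the miR-92a seed. A match describes letters in the annotated message and not a site in use.

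Genes with a match to any of the 4 seeds had a slightly higher median difference between genotypes than genes without one, in contrast to the listed targets. Those targets were listed with earlier results of these data known. Genes with and without a match were not balanced for the length of the 3′ untranslated region or for level. The part of these in the medians was not tested. In physioxia the median was 0.19 over 1738 genes with a match (683 higher, 480 lower) and −0.05 over 3588 without (1215 higher, 1330 lower). In air it was 0.30 with a match and 0.20 without. For oxygen in WT, the medians were −0.02 with a match (96 higher, 18 lower) and 0.03 without (182 higher, 19 lower). In Tet2-deficient cells they were 0.02 and −0.02.

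Both other miRNA host genes tested differed between the genotypes, as did 69.4% of all tested genes in physioxia and 79.5% in air. Mir22hg, host of miR-22, was lower in Tet2-deficient cells (−1.97 ± 0.24 in physioxia, adjusted p = 1.18e-05, and −1.79 ± 0.24 in air, adjusted p = 2.83e-05). Mir99ahg, host of miR-99a and let-7c, was higher (0.47 ± 0.17, adjusted p = 0.0228, and 0.59 ± 0.17, adjusted p = 0.00706). For physioxia minus air in WT they differed by 0.29 ± 0.24 and 0.24 ± 0.17 (adjusted p = 0.553 and adjusted p = 0.479). The nearest genes of the table on chromosome 14, Spry2 at 9146 kb and Tgds at 3065 kb, are far from Mir17hg.

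By the root mean square difference of centred log2 levels over the 16 libraries, the profiles nearest to Mir17hg were those of Irgm1 (0.47), an interferon-inducible GTPase, Gdf11 (0.50), a TGF-beta family ligand, and Twf1 (0.51), an actin-binding protein. The spread of the profile of Mir17hg itself by the same measure was 0.80. Each of the 3 was lower in physioxia than in air in WT: Irgm1 at 563 ± 253 in WT physioxia against 1214 ± 149 in WT air (−1.22 ± 0.26), Gdf11 by −1.34 ± 0.30 and Twf1 by −0.75 ± 0.14 on the log2 scale. In Tet2-deficient cells the same differences were −0.33 ± 0.26, −0.06 ± 0.30 and −0.35 ± 0.14. Since these genes were taken for their likeness, their differences are a description.

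The 7SK particle and P-TEFb genes were mixed. Of 28 listed genes 16 were tested, and 5 rose and 4 fell in Tet2-deficient physioxia (median −0.10, against 0.06 over all tested genes). In Tet2-deficient air 4 rose and 6 fell (median −0.36, against 0.24 over all tested genes), and without Tet2-deficient air replicates 3 and 4 this count was 1 and 5. With every library in, 35.9% of all tested genes rose and 33.6% fell in physioxia, and 42.1% and 37.4% in air. Mepce, which caps and stabilises 7SK, stood at 386 ± 19.9 normalized counts in Tet2-deficient physioxia against 792 ± 85.7 in WT physioxia (−1.03 ± 0.12, adjusted p = 4.93e-06). In air it stood at 373 ± 30.6 with Tet2 deficiency and 775 ± 87.2 in WT (−1.05 ± 0.12, adjusted p = 4.07e-06). Its log2 difference of physioxia minus air was 0.05 ± 0.12 in Tet2-deficient and 0.03 ± 0.12 in WT cells.

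The subunit genes of P-TEFb differed less, and not all in the same direction. Cdk9 differed by −0.38 ± 0.13 in physioxia (adjusted p = 0.0192) and −0.20 ± 0.13 in air (adjusted p = 0.155), and Ccnt1, which encodes cyclin T1, by −0.22 ± 0.14 (adjusted p = 0.163) and −0.46 ± 0.14 (adjusted p = 0.00935). Ccnt2, which encodes cyclin T2 and was named after its values were seen, was higher in physioxia (0.59 ± 0.18, adjusted p = 0.00929). It was not called in air. The super elongation complex was split, with the scaffold Aff4 lower (−0.73 ± 0.14 and −0.89 ± 0.14) and its partner Mllt3 higher (1.02 ± 0.19 and 1.27 ± 0.19) in Tet2-deficient cells. Between physioxia and air in WT 1 of the 16 was called, the elongation factor Ell2, named here after its values were seen. It stood at 1419 ± 79.9 in WT physioxia against 287 ± 87.7 in WT air (2.35 ± 0.52, adjusted p = 0.0174), and this call was not made without WT air replicate 2 or 4 or WT physioxia replicate 1 or 2. Larp7, Hexim1 and Hexim2 were not analysed here.

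RNA polymerase III, which transcribes Rn7sk, was mixed as well. Of 12 tested genes of its machinery, 4 rose and 4 fell in Tet2-deficient physioxia (median 0.10, against 0.06 over all tested genes). In Tet2-deficient air 5 rose and 4 fell (median 0.13, against 0.24), where without replicates 3 and 4 the count was 1 and 2. These counts are near the 69.4% and 79.5% of all tested genes called in physioxia and in air. Snapc1, a subunit of the complex that recognises promoters of the 7SK type, stood at 172 ± 18.0 in Tet2-deficient physioxia against 450.2 ± 26.8 in WT physioxia, and at 193 ± 36.7 in Tet2-deficient air against 486 ± 53.7 in WT air. Its log2 differences were −1.39 ± 0.15 (adjusted p = 2.92e-06) and −1.34 ± 0.15 (adjusted p = 3.72e-06). Maf1, a repressor of polymerase III, was lower too (−0.62 ± 0.08 and −0.50 ± 0.08), and the catalytic subunit Polr3b was higher (0.58 ± 0.12 and 0.34 ± 0.12). With oxygen in WT, Snapc1 differed by −0.11 ± 0.15 and Maf1 by −0.02 ± 0.08. Brf1, a polymerase III initiation factor named after its values were seen, was the 1 of 12 called there (1.06 ± 0.24, adjusted p = 0.019), and no gene of the list was called without WT air replicate 2 or 4 or WT physioxia replicate 1 or 2.

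Rn7sk has near-identical copies, so its counts are uncertain to the extent that reads were split among them. At 80% identity over at least 150 bases, 35 other annotated genes resembled it, and 3 of these were in the table: Gm24447 (100% identical over 241 bases), Gm26315 (99.58% over 238 bases) and Gm26035 (96.07% over 229 bases). They held 1.72% to 39.3% of the reads counted over the 4 genes. Gm24447 averaged 4.14 ± 3.99 normalized counts in Tet2-deficient physioxia, 9.24 ± 8.16 in WT physioxia, 32.5 ± 29.0 in Tet2-deficient air and 47.5 ± 28.2 in WT air. All 3 copies had lower means in physioxia than in air in both genotypes, and none of these differences passed the test (smallest adjusted p = 0.0705, for Gm24447 in WT). With the 4 genes summed, the log2 difference of physioxia minus air was −0.99 in Tet2-deficient cells and −2.30 in WT, and that of Tet2-deficient minus WT was −0.44 in physioxia and −1.76 in air. These copies were chosen after their values were seen.

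The gene beside Rn7sk in the table was lower in Tet2-deficient cells. C920006O11Rik, a lincRNA 0.281 kb away on the opposite strand, stood at 11.2 ± 4.30 normalized counts in Tet2-deficient physioxia against 162 ± 30.8 in WT physioxia (−3.80 ± 0.36, adjusted p = 6.77e-07), and at 11.3 ± 6.38 in Tet2-deficient air against 161 ± 31.9 in WT air (−3.83 ± 0.36, adjusted p = 5.97e-07). Its oxygen difference was 0.04 ± 0.36 in Tet2-deficient and 0.01 ± 0.36 in WT cells. Fbxo9, 66.2 kb away on the other side, differed by −0.32 ± 0.08 in physioxia (adjusted p = 0.00386) and −0.10 ± 0.08 in air (adjusted p = 0.258).

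Small noncoding RNAs were mixed between oxygen conditions in WT. Of 16 tested, which include Rn7sk, 4 were higher and 1 lower in physioxia and 11 did not pass (median −0.10). Over all tested genes 4.91% were higher and 0.851% lower. Rn7sk, at −2.24 ± 0.60 here, was chosen by its values, so its part in these counts is no test. The snoRNA Snord49b differed by −0.64 ± 0.36 (adjusted p = 0.342). The mitochondrial ribosomal RNA mt-Rnr1, chosen after its values were seen, differed by −0.22 ± 0.25 (adjusted p = 0.677). The ribosomal RNA row CT010467.1, chosen after its values were seen, took 0.517% to 1.19% of the reads of the table in Tet2-deficient physioxia, 0.808% to 1.28% in WT physioxia, 0.428% to 0.981% in Tet2-deficient air and 0.349% to 0.833% in WT air. Its log2 difference of physioxia minus air in WT was 1.00 ± 0.31 (adjusted p = 0.0745). Gm24245, a short row annotated as a miRNA, was at 79.3 ± 25.0 in WT physioxia against 6.84 ± 2.86 in WT air (3.38 ± 0.60, adjusted p = 0.00955). The part of such rows in the values of Rn7sk was not tested.

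**Figure D4:**
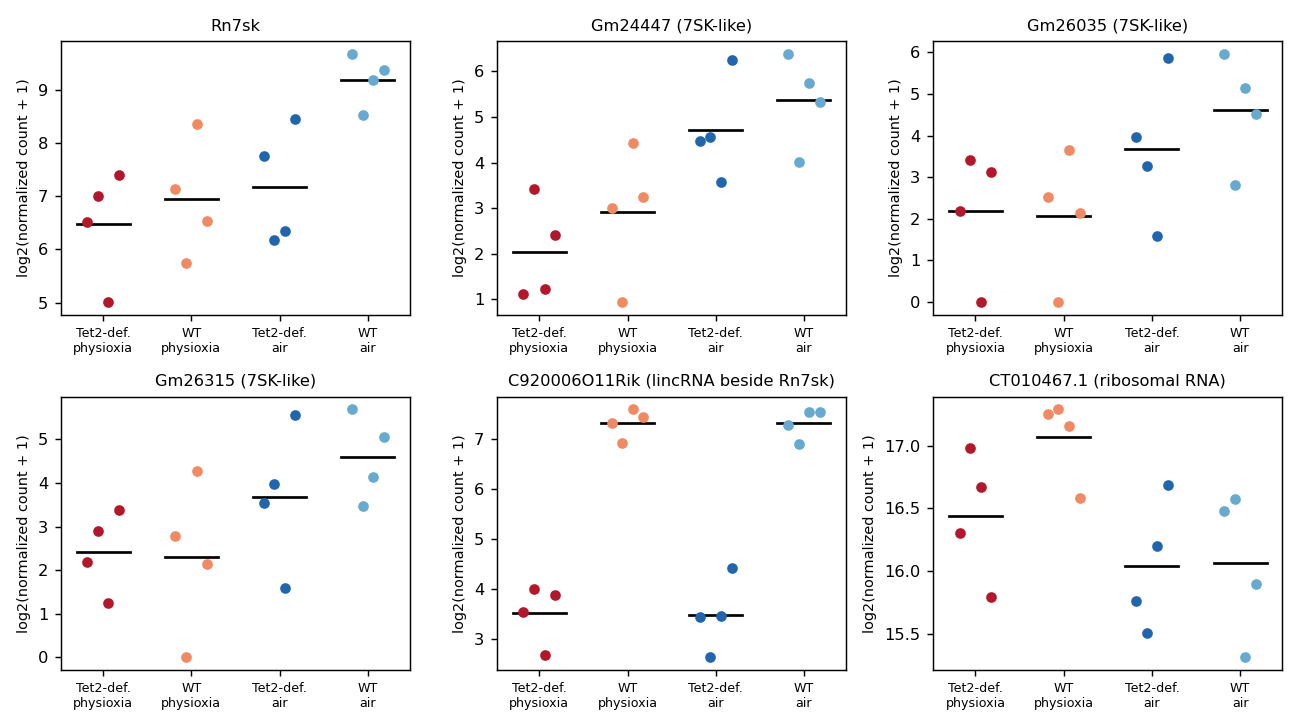
Levels of Rn7sk, its 3 copies in the table, the neighbouring lincRNA C920006O11Rik and the ribosomal RNA row CT010467.1 as log2(normalized count + 1), with 1 point per library and a line at the group mean (n = 4). Rn7sk and its copies are lower in physioxia than in air by mean, C920006O11Rik is lower in Tet2-deficient cells, and CT010467.1 is highest in WT physioxia.

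The profiles nearest to Rn7sk were those of Gm32031 (0.82), a long noncoding RNA from a bidirectional promoter, Map3k1 (0.85), a kinase of the JNK pathway, and Hist1h4c (0.87), a histone H4 gene, against a spread of 1.33 of Rn7sk itself. Gm32031 averaged 88.9 ± 19.4 in Tet2-deficient physioxia, 139 ± 61.7 in WT physioxia, 99.9 ± 48.8 in Tet2-deficient air and 192 ± 49.4 in WT air. Map3k1 averaged 121 ± 30.3, 194 ± 83.0, 157 ± 23.5 and 407 ± 85.8 in the same groups. Replication-dependent histone messages, which like 7SK typically carry no poly(A) tail, were lower as a group in Tet2-deficient cells. Whether each gene of this list makes only messages without the tail was not checked. Of 22 tested, 5 rose and 13 fell in physioxia (median −0.71, against 0.06 over all tested genes). In air 4 rose and 12 fell (median −0.69, against 0.24). Among all tested genes 35.9% rose and 33.6% fell in physioxia, and 42.1% and 37.4% in air. For physioxia minus air in WT, where Rn7sk differed by −2.24, 0 of the 22 were called (median −0.17). The part of the missing tail in the values of Rn7sk was not tested.

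Erythroid genes moved with Redrum. Of 33 tested erythroid structural, haem and surface genes, 28 rose and 0 fell in Tet2-deficient physioxia (median 1.83, against 0.06 over all tested genes). In Tet2-deficient air 32 rose and 0 fell (median 2.12, against 0.24). The shares of all tested genes were 35.9% higher and 33.6% lower in physioxia, and 42.1% and 37.4% in air. The erythroid genes that rose included Ermap, a surface protein of red cell precursors (2.48 ± 0.36 in physioxia, adjusted p = 4.66e-05, and 2.49 ± 0.36 in air, adjusted p = 4.47e-05). The carbonic anhydrase Car2 stood at 1.70 ± 0.27 and 1.89 ± 0.27, and Alas2, the first enzyme of erythroid haem synthesis, at 1.83 ± 0.61 (adjusted p = 0.0147) and 2.45 ± 0.61 (adjusted p = 0.00301). The adult beta globin gene Hbb-bs differed by 0.22 ± 0.75 (adjusted p = 0.799) and 1.39 ± 0.75 (adjusted p = 0.0932). None of the 33 was called between physioxia and air in either genotype.

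Among 10 tested erythroid transcription factor genes, 7 rose and 0 fell in Tet2-deficient physioxia, where 35.9% and 33.6% of all tested genes did. In Tet2-deficient air 8 rose and 1 fell, against 42.1% and 37.4% of all tested genes. Without Tet2-deficient air replicates 3 and 4 the count in air was 5 and 0. Klf1, the activator of adult globin and red cell membrane genes, differed by 2.15 ± 0.35 in physioxia (adjusted p = 0.000145) and 2.47 ± 0.35 in air (adjusted p = 4.21e-05). Tal1, a basic helix-loop-helix factor, differed by 1.17 ± 0.38 (adjusted p = 0.0132) and 2.33 ± 0.38 (adjusted p = 0.000147). Gata1, the zinc finger factor of red cell precursors, differed by 0.92 ± 0.26 (adjusted p = 0.0067) and 1.17 ± 0.26 (adjusted p = 0.00165). The repressor Gfi1b differed by 1.20 ± 0.18 and 1.38 ± 0.18. The 1 that fell in air was Foxo3 (−0.37 ± 0.15, adjusted p = 0.037), named after its values were seen. Between physioxia and air in WT 1 of the 10 was called, the GATA1 partner Lmo2 (1.20 ± 0.28, adjusted p = 0.0223), also named after its values were seen, and none without WT physioxia replicate 1 or 2.

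Redrum and the erythroid genes were highest in the same library of each group. The mean log2 level of the 33 genes was 10.80, 12.48, 11.40 and 10.76 in Tet2-deficient physioxia replicates 1 to 4, and 9.30, 10.16, 9.22 and 9.57 in WT physioxia replicates 1 to 4. In air it came to 10.85, 10.82, 12.63 and 11.54 in Tet2-deficient replicates 1 to 4, and to 9.16, 9.97, 9.19 and 9.33 in WT replicates 1 to 4. The order of the other libraries differed in part, as in WT air, where replicate 1 stood above replicate 3 in Redrum and below it in the erythroid genes. Every Tet2-deficient library lay above every WT library on both scales. The profile nearest to Redrum was that of Cldn13, an erythroid claudin that belongs to this list (root mean square difference 0.29, against a spread of 1.84 of Redrum itself), followed by Tmem56 (0.37), also of this list, and Plpp1 (0.42), a lipid phosphate phosphatase. Cldn13 stood at 2974 ± 1800.5 in Tet2-deficient physioxia, 487 ± 352 in WT physioxia, 3251 ± 2145 in Tet2-deficient air and 365 ± 213 in WT air.

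**Figure D5:**
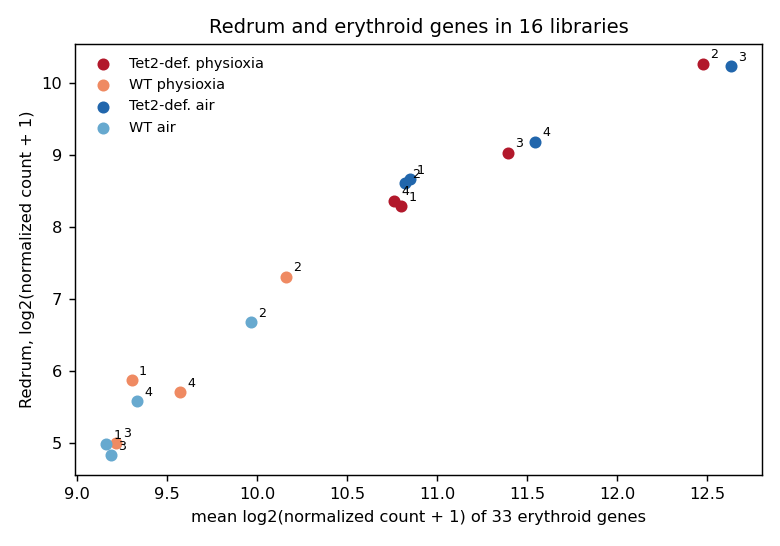
Redrum as log2(normalized count + 1) against the mean of 33 erythroid genes on the same scale, with 1 point per library, coloured by group and numbered by replicate. The 8 Tet2-deficient libraries lie at 10.76 or above on the horizontal axis and the 8 WT libraries at 10.16 or below, and the library highest in the erythroid genes is highest in Redrum in each group.

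Marker genes of other cell types also differed between the genotypes. The 8 mature neutrophil markers in the table summed to 1014 to 1930 normalized counts in Tet2-deficient physioxia against 4837 to 13675 in WT physioxia, and to 597 to 1469 in Tet2-deficient air against 2161 to 10883 in WT air. Of the 15 T and NK cell markers tested, 12 were lower and 1 higher in physioxia, where 33.6% and 35.9% of all tested genes were. In air 13 were lower and 1 higher, against 37.4% and 42.1% of all tested genes. The 6 stem and progenitor markers were all higher in Tet2-deficient cells in both conditions, with medians of 0.93 in physioxia and 0.95 in air. The medians over all tested genes were 0.06 and 0.24, with 35.9% and 42.1% of those genes higher. Of 6 monocyte and macrophage markers tested, 4 were lower and 0 higher in physioxia, and 6 and 0 in air. Of 4 megakaryocyte markers tested, 2 were lower and 0 higher in physioxia, and 2 and 1 in air. The 1 B cell marker tested was lower in physioxia and not called in air. The 1 stromal and endothelial marker tested was called in neither. No marker list had a member at 0 in all libraries of a group. The part of cell composition in the differences of Redrum, Mir17hg and Rn7sk was not tested.

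Long noncoding RNAs as a class were split in direction between the genotypes. Of 407 tested, which include Mir17hg and Redrum, 137 rose and 123 fell in Tet2-deficient physioxia (median 0.06), and 147 rose and 180 fell in Tet2-deficient air (median −0.45), where without replicates 3 and 4 the count was 82 and 97. Of 8 tested from the listed haematopoietic long noncoding RNAs, which include Redrum, 2 rose and 4 fell in physioxia, and 1 rose and 4 fell in air. The 1 that rose in air was Redrum itself, and the 2 in physioxia were Redrum and Meg3. Redrum was chosen by its values, so its part in these counts is no test. Of all tested genes 35.9% rose and 33.6% fell in physioxia, and 42.1% and 37.4% in air. Meg3, an imprinted long noncoding RNA named after its values were seen, was higher in physioxia. It stood at 48.4 ± 33.7 normalized counts in Tet2-deficient physioxia against 12.2 ± 12.0 in WT physioxia (2.33 ± 0.80, adjusted p = 0.0171). The snoRNA hosts Snhg1, Snhg5, Snhg12 and Snhg15 were lower in Tet2-deficient cells, with log2 differences of −1.01 to −0.84 in physioxia and −1.05 to −0.70 in air. The neighbours of Redrum in the table are Cep120 and Gm4221, at 678 kb and 537 kb. Cep120 differed by −0.24 ± 0.17 in physioxia (adjusted p = 0.22) and −0.49 ± 0.17 in air (adjusted p = 0.0176), and Gm4221 by −0.47 ± 0.18 in each (adjusted p = 0.0296 and adjusted p = 0.0284).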

How the data were processed

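RNA sequencing libraries of 16 samples in 4 groups of 4 were used. The deposited values are a signal: per the labels and the table itself, the authors scaled read counts by a DESeq2 size factor for each library. All values (100%) were whole multiples of the value of 1 read within 0.01, so whole reads were recovered. FastQC, cutadapt, STAR, HTSeq, DESeq2 and GRCm38 are named, per the submitters' processing notes, without versions. How the 6288 genes of the table were chosen, and how reads of overlapping or repeated genes were assigned, is not given in the sources used here. Identifiers matched GENCODE M21 (55450 genes) for 6278 genes, and 10 had none.

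Of these, 6110 reached a normalized count of 10 in 4 or more libraries and entered the test, and 178 did not. After a pseudocount of 1, log2 values were modelled by limma 3.58.1 under R 4.3.3 in 1 fit of group means over all libraries, with an intensity trend, two-sided, Benjamini-Hochberg adjusted, with 0.05 as threshold. Differences on this scale understate those of low genes. edgeR 4.0.16 and DESeq2 1.42.0 on the recovered reads were alternatives. The fit was also run on simulated data, with no result reported here, so nothing about these libraries is read from that run. The members and gene lists were chosen with earlier results of these data known. Named were the members, Tet2, a set of pathway genes, up to 4 genes per list by p, the nearest table gene on each side of a member, and the 3 nearest profiles with a mean of at least 50. Copies of Rn7sk were found with BLAST 2.17.0. Replicate numbers came from the labels. Same-numbered WT libraries deviated together (r = 0.162 to 0.332). Among Tet2-deficient ones replicate 1 did so as well (r = 0.322), while replicates 2, 3 and 4 did not (r = −0.275 to 0.042). These correlations cannot show whether the Tet2-deficient libraries were paired. Some genes that this rule names are not reported here.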

Additional observations from a re-analysis of the deposited data

Results flagged for a closer look

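Within single groups, 12 of 144 groups of 4 libraries (36 genes looked at) had 1 library far from the other 3, with a gap, as a share of the group's range, past the 95% critical value of Dixon's test. Chance alone gives about 1 in 20 such groups. Mir17hg, Rn7sk and Redrum had none. Most were erythroid genes in the libraries that were also highest in Redrum. In Tet2-deficient physioxia replicate 2, Alas2 stood at 1889 against 259.9 to 409 in the others, and Hbb-bs at 20332 against 2118 to 4065. In Tet2-deficient air replicate 3, Alas2 stood at 2322 against 282 to 623, and Hbb-bs at 31750.4 against 1709 to 6240.2. In WT physioxia replicate 2, Cldn13 stood at 1011 against 265 to 377 and Klf1 at 2672 against 1005 to 1244. In WT air replicate 2, Alas2 stood at 155 against 92.5 to 98.5.

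Bcl2l11 was high in the same Tet2-deficient libraries, at 607 in physioxia replicate 2 against 477 to 494 and at 588 in air replicate 3 against 380.3 to 404. The mitochondrial ribosomal RNA mt-Rnr1 stood at 2788 in Tet2-deficient physioxia replicate 2 against 2116 to 2226. Myc stood at 14527 in Tet2-deficient air replicate 4 against 15316 to 15348, a narrow range. Gm4221, the neighbour of Redrum, stood at 72.9 in Tet2-deficient air replicate 2 against 99.0 to 104.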

How the results depend on the processing

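All 410 recomputed differences of Mir17hg, Rn7sk and Redrum moved by less than the spread between replicates, but 6 of them turned sign. Rn7sk, Tet2-deficient minus WT in physioxia, came to 0.03 without Tet2-deficient replicate 3 and 0.02 without WT replicate 3. Redrum, physioxia minus air in Tet2-deficient cells, came to 0.17 without air replicate 3, 0.05 and 0.02 without physioxia replicate 1 or 4, and 0.35 without air replicates 3 and 4. Counts of called genes moved more. Between the genotypes in air, 4858 genes were called, 2740 without Tet2-deficient air replicates 3 and 4, and 2434 when the annotated genes that the table lacks were taken to show no change, a bound chosen after seeing the data. In physioxia the count was 4243, and 2477 with that bound. Between physioxia and air in WT it was 352, with 539 by DESeq2 and 0 with the bound. In Tet2-deficient cells it was 0, with 1 at a pseudocount of 5, 9 by DESeq2, 1 with the replicate block and 152 without Tet2-deficient air replicates 3 and 4. For the interaction it was 0, with 8 by DESeq2, 0 by edgeR and 546 at an unadjusted p under 0.05. Leaving out 1 library at a time gave 4034 to 5267 between genotypes in air, 3832 to 4300 in physioxia, 126 to 554 for oxygen in WT, 0 to 1 in Tet2-deficient cells and 0 to 1 for the interaction. The causes were not tested.

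With the replicate block, 269 genes were called between physioxia and air in WT. With WT pairs alone as blocks, added after seeing the data, 431 were. Apart from the 1 gene above in Tet2-deficient cells, neither block moved a count of called genes by over 1.5 times. Quantile normalization moved the median of all genes between genotypes in air to 0.12, against 0.24, and gave 1984 higher and 2303 lower calls, against 2575 and 2283. By Pearson's r, 2 of 3 nearest profiles of Mir17hg, 1 of 3 of Rn7sk and 1 of 3 of Redrum were shared with the main measure. Mir17hg at 17 to 141 reads limits its precision by counting error. Copies of Rn7sk, and a table of genes that already differed, limit what the counts and shares describe.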
